A study of Mus musculus with 6 samples.

Results

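The Bcl2 family decides whether a cell keeps its mitochondria sealed or enters apoptosis, and 10 of its genes were followed here through the RNA of a mouse leukaemia: the anti-apoptotic Bcl2, Mcl1, Bcl2l1 and Bcl2l2, the pore-forming effectors Bax and Bak1, and the BH3-only genes Bid, Bcl2l11, Bbc3 and Pmaip1. They were chosen by gene name from the 55401 genes of the deposited table, and all 10 are listed there once. Total RNA was sequenced from bone marrow cells of 6 mice, each of them a secondary recipient of a Hoxa9/Meis1 leukaemia. The 3 Lym mice (numbers 62, 63 and 87) had received lymphoid leukaemic stem cells, and their lymphoid cells (Lym+) were sequenced. The 3 Lin- mice (numbers 56, 57 and 91) had received Lin- leukaemic stem cells, and their Lin-cKit+ progenitor cells were sequenced. Library values follow that order of mice within a group. Hoxa9 and Meis1 drive the leukaemia in both groups, and no healthy marrow is among these libraries. Strain, age and donor leukaemia of the mice are not given in the labels. The transplanted stem cells and the sequenced cell fraction differ together between the groups, so their parts in a difference cannot be told apart. The p-values set the difference between the groups against the spread between mice within a group, for these 6 animals. Each mouse gave 1 library, and the comparison is Lym minus Lin-.

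Proteins of this family meet at the outer mitochondrial membrane. Bax and Bak1 form the pores through which cytochrome c leaves to start the caspase cascade, and Bcl2, Mcl1, Bcl2l1 (Bcl-xL) and Bcl2l2 (Bcl-w) hold them back. BH3-only proteins sense stress and either block the anti-apoptotic proteins or engage Bax and Bak1 directly, through a short helix, the BH3 domain, that all members share. In blood, Mcl1 is needed by stem and progenitor cells, Bcl2 sustains lymphocytes, and Bcl2l11 (Bim) removes lymphoid cells that lose cytokine support. Bcl2 and Mcl1 are also drug targets in acute leukaemia.

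The stretch that codes for the BH3 helix is shown for 9 members, since this is the part by which proteins of opposite role bind each other. Each line gives 24 coding bases of the GENCODE M21 transcript, 5′ to 3′, with the codon of the leading leucine (methionine in Bcl2l2) and the codons of the central glycine (alanine in Bbc3) and aspartate in capitals.
Bcl2: CTCcgccgggctGGGGATgacttc
Mcl1: CTGcggcgcgtgGGCGACggcgtg
Bcl2l1: CTGagagaggcaGGCGATgagttt
Bcl2l2: ATGcgggctgctGGAGACgagttt
Bax: CTCcggcgaattGGAGATgaactg
Bak1: CTTgctctcatcGGAGATgatatt
Bid: CTCgcccaaataGGCGATgagatg
Bcl2l11: CTGcggcggatcGGAGACgagttc
Bbc3: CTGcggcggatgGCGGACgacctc
In GRCm38 the stretches on the minus strand are those of Bcl2 at chr1:106712578-106712601, Bcl2l1 at chr2:152829700-152829723, Bax at chr7:45466000-45466023, Bak1 at chr17:27022534-27022557 and Bid at chr6:120897292-120897315. Those on the plus strand are Mcl1 at chr3:95659436-95659459, Bcl2l2 at chr14:54884517-54884540, Bcl2l11 at chr2:128147150-128147173 and Bbc3 at chr7:16313773-16313796. Each lies in the coding part of 1 exon. Any pair of the 9 stretches had 9 to 19 of 24 bases in common, with a median of 14. The stretches were found by a pattern written from the known BH3 domains of these proteins, which 97 of 21614 coding genes (0.449%) hold, so their presence in the members is a description. No stretch is printed for Pmaip1.

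Reads assigned to genes came to between 18537700 and 21332571 in the Lym libraries and between 19988561 and 22634286 in the Lin- libraries. Members were covered by 143 reads (Bbc3, Lym mouse 62) to 5205 reads (Bcl2, Lym mouse 63) in a library. Along the first principal component of the 500 most variable genes (61.8% of their variance), Lym mouse 87 scored 26.4, inside the span of the Lin- mice (3.86 to 36.4), while Lym mice 62 and 63 scored -52.5 and -32.9. Every member is therefore also given without Lym mouse 87. The labelled cell types were checked by markers. Kit was present in every library (3158 to 18902 normalized counts in Lym and 3420 to 6066 in Lin-), and the early B markers were uneven. Cd79a and Pax5 reached only 4.48 and 0.953 normalized counts, while Cd79b reached 255 in Lym and 414 in Lin-. Dntt, which adds bases to rearranging receptor genes, was at 216, 29.1 and 4.76 in Lym and at 0 in every Lin- mouse, and Rag1 (104), Vpreb1 (63.9) and Ebf1 (59.4) were highest in Lym mouse 62. Il7r, the receptor chain of early lymphoid cells, stood at 424, 82.8 and 14.3 in Lym against 2.65, 3.52 and 4.13 in Lin-. All 10 early B markers together came to 8.25 to 56.6 CPM (reads scaled to 1 common library size) in Lym and 3.00 to 21.1 CPM in Lin-. The 5 stem and progenitor markers, Kit among them, came to 2055 to 3486 CPM in Lym and 1647 to 2123 CPM in Lin-. Lym mice 62 and 63 stood above every Lin- mouse in that sum, and mouse 87 within the Lin- range. These markers were thus not lower in the cells labelled lymphoid than in the Lin-cKit+ cells. The 7 neutrophil markers, of which myeloperoxidase (Mpo) gave nearly all, came to 2360 to 2679 CPM in Lym and 3002 to 6156 CPM in Lin-. T cell and erythroid markers stayed under 7 CPM in sum in both groups, with 1 of 6 and 5 of 6 genes listed at 0 throughout, and macrophage markers came to 120 to 209 CPM in Lym against 148 to 177 CPM in Lin-.

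Bcl2, the founding inhibitor of apoptosis (chromosome 1, 106538178 to 106714274, minus strand), was the only member whose groups did not overlap. Its normalized counts, the gene's reads divided by a size factor for the library, were 5456, 5824 and 4958 in Lym and 3702, 3377 and 3379 in Lin-. All 3 Lym mice lay above all 3 Lin- mice, and mouse 87 was the lowest of the Lym group. The mean was 5413 ± 435 in Lym and 3486 ± 187 in Lin- (SD, n = 3 each), a ratio of 1.55. Spread between mice, at 8.03% of the mean in Lym and 5.36% in Lin-, was larger than the 1.40% and 1.63% that counting error alone gives.

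**Figure D1:**
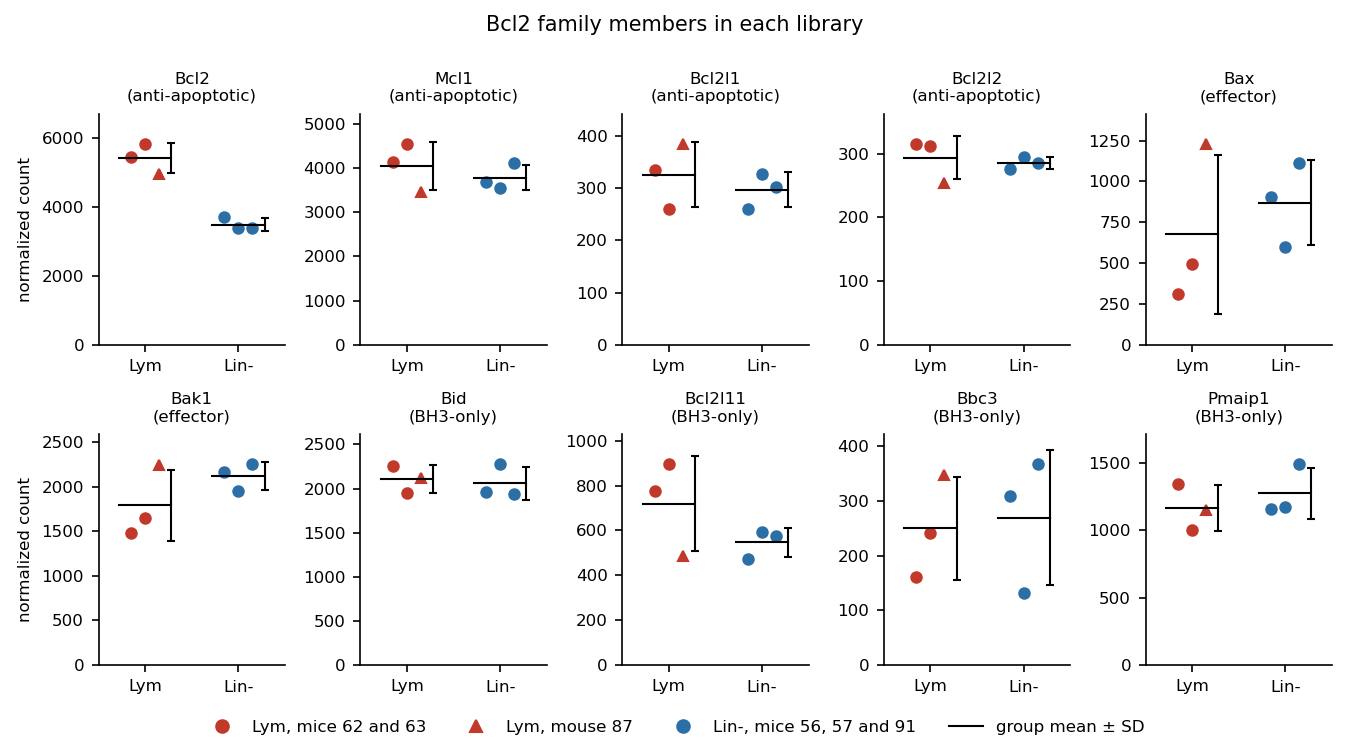
Normalized count (vertical axes, linear from 0) of each member in each library, Lym left and Lin- right; every point is 1 mouse, triangles mark Lym mouse 87, and horizontal lines with bars give the group mean ± SD (n = 3). In Bcl2 the Lym points sit between 4958 and 5824, all above the Lin- points (3377 to 3702); in the other 9 members the groups overlap.

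The log2 fold change of Bcl2, computed on log2(normalized count + 2), was 0.63 ± 0.11 (SE), with a limma adjusted p of 0.406 over the 14273 genes tested. Limma called no gene at an adjusted p under 0.05 (0%), and 0 of the 10 members, of which 6 were higher and 4 lower in Lym with a median log2 fold change of 0.04, beside -0.01 over all genes tested. At an unadjusted p under 0.05 it had 850 genes higher in Lym (5.96%) and 609 lower (4.27%), among them 1 member, Bcl2. edgeR and limma-voom also called 0 genes, with 1444 and 1362 at an unadjusted p under 0.05. Non-overlapping groups were seen in 1212 genes higher in Lym (8.49%) and 1011 lower (7.08%), and the 1 member of 10 is read against these shares.

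Bcl2 did pass the threshold in DESeq2, a count model run on reads recovered from the normalized counts. There its log2 fold change was 0.63 ± 0.16 (DESeq2 adjusted p = 0.0112), where 186 of 16268 genes were called higher in Lym (1.14%). The authors' deposited table gives 0.59 ± 0.15 with an adjusted p of 0.0282 in the direction of Lym, among 81 of 31604 genes called higher in Lym (0.256%). Both rest on the same 6 libraries. In a single simulated set of counts DESeq2 called unchanged genes more often than its threshold allows. That set held only genes past the filter on low values, with spreads estimated from all 6 libraries, so it does not settle this call. The DESeq2 call was lost without Lym mouse 63 (adjusted p = 0.0703), without Lin- mouse 57 (0.0637) and without Lin- mouse 91 (0.132). It remained without Lym mouse 62 (0.0445), without Lin- mouse 56 (0.0404) and without Lym mouse 87 (6.66e-06). Without Lym mouse 87 limma called Bcl2 as well, at 0.69 ± 0.11 (adjusted p = 0.00766), when 782 genes (5.48%) passed as higher and 584 (4.09%) as lower.

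Genes with longer exons were on the whole slightly higher in the Lym group, but not in Lym mouse 87. The median log2 fold change over genes was 0.10 in the longest of 5 equal classes of exon length (6810 bases and more), to which Bcl2 (9157 bases) and Bcl2l11 (8029 bases) belong, and -0.13 in the shortest class, to which Bax (1576 bases) belongs. By library, levels were taken from each gene's mean over the 6 libraries. The median in the longest class was then 0.117 and 0.089 in Lym mice 62 and 63. It was -0.022 in Lym mouse 87, against -0.073, -0.016 and -0.067 in Lin-. Measured from the median of its own length class, with all 6 libraries, Bcl2 stood at 0.53, Bcl2l11 at 0.25 and Bax at -0.43 on the log2 scale. In these bulk libraries fewer cells of a type and less RNA per cell cannot be told apart. The summed neutrophil markers were lower in all 3 Lym mice, but that sum is nearly all Mpo. Elane overlapped between the groups (733 to 1228 normalized counts in Lym, 1069 to 3973 in Lin-). S100a8, S100a9, Ltf, Camp and Ngp reached at most 37.1 (Ngp, Lin- mouse 56). The part of these markers in the difference of Bcl2 was not tested. An antisense gene, D630008O14Rik, shares 6.09% of the exon bases of Bcl2, and whether reads were counted by strand is not given in the sources used here.

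Mcl1, a short-lived inhibitor that cells must keep remaking (chromosome 3, 95658788 to 95663176), was close in the groups. It stood at 4150, 4548 and 3467 normalized counts in Lym and at 3690, 3555 and 4114 in Lin-. Lym mouse 87 had the lowest value of all 6, and the groups overlap. Its log2 fold change was 0.09 ± 0.13 (limma adjusted p = 0.819), and 0.20 ± 0.11 without Lym mouse 87 (adjusted p = 0.307). Without Lym mouse 63 it was 0.0052 and without Lin- mouse 57 it was 0.05.

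The genes of Bcl-xL and Bcl-w were low and overlapped. Bcl2l1 (chromosome 2, 152780668 to 152831728), which protects maturing red cells and platelets, was at 334, 260 and 385 normalized counts in Lym against 261, 328 and 302 in Lin-. Here mouse 87 was the highest library and mouse 63 the lowest, so the Lym group spans the whole range. The log2 fold change was 0.12 ± 0.21 (limma adjusted p = 0.857), and turned to -0.01 without Lym mouse 87. Bcl2l2 (chromosome 14, 54883377 to 54888234) was at 315, 312 and 254 in Lym against 276, 295 and 286 in Lin-. The Lin- values of Bcl2l2 lie within the Lym range, and at 0.04 ± 0.19 (limma adjusted p = 0.958) its direction turned without Lym mouse 62 (-0.02) or Lym mouse 63 (-0.01) and was 0.14 without Lym mouse 87. In Bcl2l2, 13.3% of the exon bases are shared with the gene model Gm20521 on the same strand, so its count is uncertain.

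Bax and Bak1 had their lowest values in Lym mice 62 and 63, while Lym mouse 87 lay within the Lin- range in Bak1 and above it in Bax. Bax, which moves from the cytosol to mitochondria when activated (chromosome 7, 45461697 to 45466898), was at 310, 493 and 1229 normalized counts in Lym against 904, 597 and 1111 in Lin-. The Lym group thus holds both the lowest and the highest library. Its spread was the largest of the 10 members in Lym, 71.8% of the mean, against 29.7% in Lin-, where counting error alone gives 3.87% and 3.29%. The log2 fold change was -0.56 ± 0.46 (limma adjusted p = 0.672). Leaving out Lin- mouse 91 gave -0.36, and leaving out Lym mouse 87 gave -1.11 ± 0.28, past the threshold (limma adjusted p = 0.0413), whereas leaving out Lym mouse 62 gave -0.11 (adjusted p = 0.973). The same-strand gene model Gm45808 shares 12.2% of the exon bases of Bax.

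Bak1, the effector that resides in the mitochondrial membrane (chromosome 17, 27019810 to 27029009), was at 1477, 1652 and 2241 normalized counts in Lym against 2161, 1950 and 2252 in Lin-. Mice 62 and 63 lay below every Lin- mouse and mouse 87 close to the top of the Lin- range. Its difference on the log2 scale, -0.26 ± 0.17 (limma adjusted p = 0.588), became -0.44 ± 0.12 without Lym mouse 87 (limma adjusted p = 0.0576, DESeq2 adjusted p = 0.0352), but -0.14 without Lym mouse 62. Antisense exons, most of them of Ggnbp1, cover 25.5% of the exon bases of Bak1, which makes its count uncertain.

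**Figure D2:**
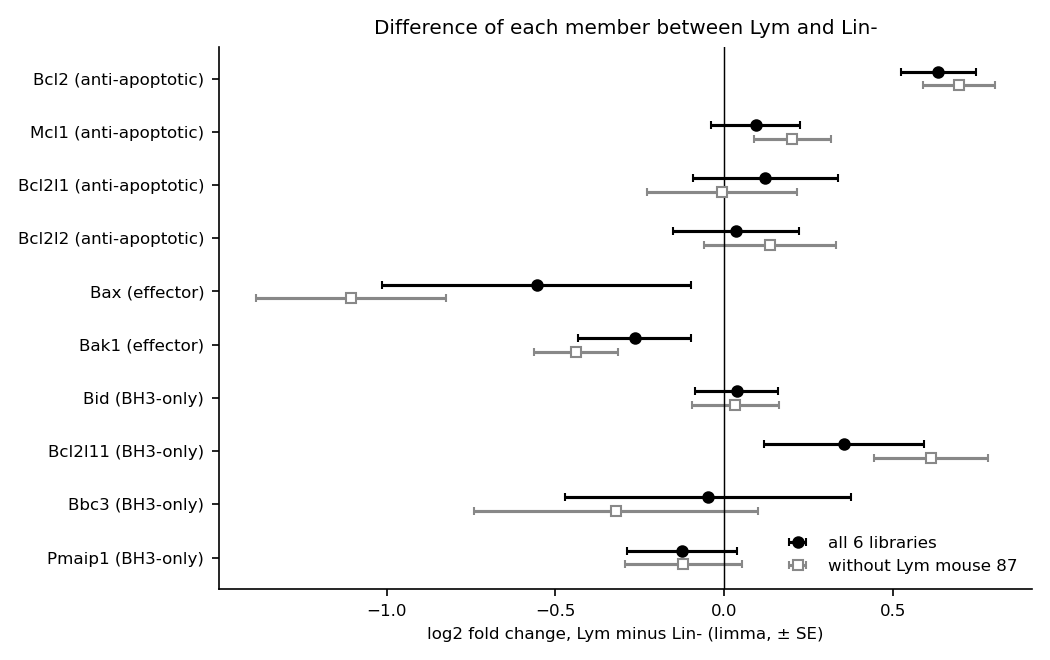
Log2 fold change of each member, Lym minus Lin- (horizontal axis, limma, bars ± SE), with all 6 libraries (filled circles) and without Lym mouse 87 (open squares). Bcl2 lies at 0.63 and 0.69; Bax moves to -1.11 and Bcl2l11 to 0.61 when mouse 87 is left out.

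Among the BH3-only genes Bcl2l11 had the largest difference. Bcl2l11 (chromosome 2, 128126038 to 128162547), whose protein binds every anti-apoptotic member, was at 777, 895 and 486 normalized counts in Lym against 474, 593 and 576 in Lin-. Mice 62 and 63 exceeded every Lin- mouse, and mouse 87 lay inside the Lin- range. Its log2 fold change was 0.35 ± 0.24 (limma adjusted p = 0.607), and 0.61 ± 0.17 without Lym mouse 87 (limma adjusted p = 0.0531, DESeq2 adjusted p = 0.0222), but 0.17 without Lym mouse 63. Without Lym mouse 87 DESeq2 called 4 of the 10 members, Bcl2 and Bcl2l11 higher and Bax and Bak1 lower. In that fit 7.5% of genes were called higher and 5.36% lower. Limma, also without mouse 87, called Bcl2 and Bax.

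Bbc3 (Puma; chromosome 7, 16308393 to 16318205), like Bax a textbook target of p53, varied widely within both groups. It was at 160, 242 and 348 normalized counts in Lym against 310, 131 and 367 in Lin-. As in Bax, mouse 87 was the highest of the Lym group and mouse 57 the lowest of the Lin- group. The spread was 37.6% of the mean in Lym and 45.7% in Lin-. Its difference on the log2 scale, -0.05 ± 0.42 (limma adjusted p = 0.976), took the other sign without Lym mouse 62 (0.23), Lin- mouse 56 (0.12) or Lin- mouse 91 (0.24) and was -0.32 without Lym mouse 87.

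Bid and Pmaip1 did not separate the groups. Bid, which caspase-8 cleaves to link death receptors to mitochondria (chromosome 6, 120891930 to 120916853), was at 2256, 1950 and 2116 normalized counts in Lym against 1955, 2275 and 1941 in Lin-. The ranges nearly coincide, and its log2 fold change was 0.04 ± 0.12 (limma adjusted p = 0.928), which took the other sign without Lym mouse 62 (-0.01) or Lin- mouse 91 (-0.0034) and was 0.03 without Lym mouse 87. Antisense exons of the neighbouring Bcl2l13 cover 17.7% of its exon bases. Pmaip1 (Noxa; chromosome 18, 66458533 to 66465565), whose protein binds Mcl1, was at 1345, 1003 and 1151 normalized counts in Lym against 1154, 1174 and 1488 in Lin-. Its lowest library was in Lym and its highest in Lin-, with overlap between, and the log2 fold change was -0.13 ± 0.16 (limma adjusted p = 0.798). It was -0.12 without Lym mouse 87, -0.23 without Lym mouse 62, -0.022 without Lym mouse 63 and -0.0077 without Lin- mouse 91.

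By class, the anti-apoptotic members stood higher in mean level in every Lym mouse than in any Lin- mouse, while the effectors divided the Lym mice. Bcl2 was the only gene of the anti-apoptotic class whose own groups were apart, and Mcl1, Bcl2l1 and Bcl2l2 each overlapped. The separation of the class mean is therefore not a finding separate from Bcl2. The mean log2(normalized count + 2) over the 4 anti-apoptotic members was 10.28, 10.25 and 10.16 in Lym and 9.97, 10.03 and 10.04 in Lin-. For Bax and Bak1 together it was 9.41, 9.82 and 10.70 in Lym against 10.45, 10.08 and 10.63 in Lin-. Mice 62 and 63 were lowest there and mouse 87 highest of all. The 4 BH3-only members stood at 9.62, 9.66 and 9.65 in Lym against 9.57, 9.41 and 9.79 in Lin-, so that the Lym mice lay within the Lin- range.

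Subtracting the mean of the 6 pro-apoptotic members from that of the 4 anti-apoptotic ones gave 0.73, 0.53 and 0.16 in Lym against 0.10, 0.39 and -0.03 in Lin-. Mice 62 and 63 were above every Lin- mouse and mouse 87 lay between Lin- mice 56 and 57. The group means were 0.48 ± 0.29 in Lym and 0.15 ± 0.22 in Lin- (SD, n = 3 each), a difference of 0.32 on the log2 scale, given without a test because it is a score over members. It was 0.17 with medians over members, 0.19 without Lym mouse 62 and 0.48 without Lym mouse 87. Bcl2 and Bax, the members with the largest fold changes in either direction, both enter this score.

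**Figure D3:**
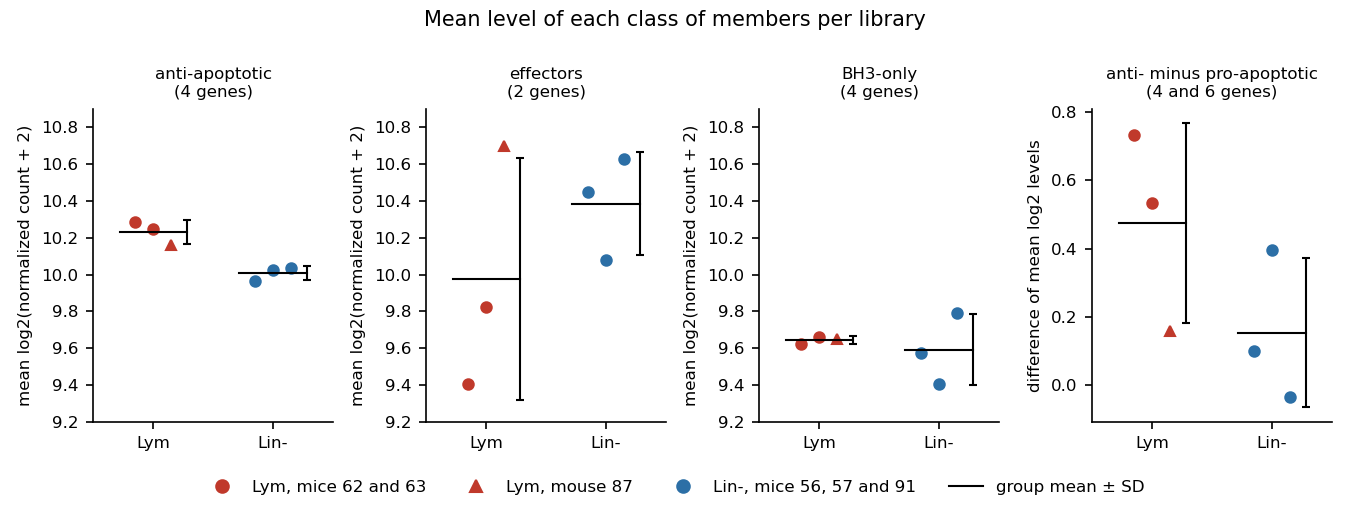
Mean of log2(normalized count + 2) over the anti-apoptotic members, the effectors and the BH3-only members, and the anti- minus pro-apoptotic difference, in each library (points; triangles, Lym mouse 87), Lym left and Lin- right, with group means ± SD (n = 3). The vertical axes are log2 and do not start at 0; the anti-apoptotic Lym points (10.16 to 10.28) lie above the Lin- points (9.97 to 10.04), and the effector points of Lym run from 9.41 to 10.70.

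Levels of different members can be compared only per length, and were taken as normalized counts per kilobase of annotated exon. Mcl1 was the most abundant member, at 1186 ± 160 per kilobase in Lym and 1108 ± 85.3 in Lin- (SD, n = 3 each), and its range did not meet that of the next gene in either group. Bak1 followed at 744 ± 166 in Lym and 881 ± 64.3 in Lin-. Bcl2 stood at 591 ± 47.5 per kilobase in Lym, where its range overlapped those of Bak1, Bid (594 ± 43.2) and Bax (430 ± 309). In Lin- it stood at 381 ± 20.4, with a range apart from its neighbours in rank, Pmaip1 above (466 ± 68.6) and Bbc3 below (127 ± 58.0), but overlapping that of Bax (552 ± 164). The lowest 4 in both groups were Bbc3, Bcl2l11, Bcl2l1 and Bcl2l2, from 118 down to 65.9 per kilobase in Lym and from 127 down to 64.0 in Lin-, with ranges that overlap from each gene to the next.

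Of the summed anti-apoptotic level per kilobase, Bcl2 made up 30.5%, 30.4% and 31.9% in Lym and 25.2%, 23.8% and 21.7% in Lin-. Mcl1 made up 62.2%, 63.6% and 59.8% in Lym against 67.4%, 67.3% and 70.7% in Lin-. Bcl2 and Mcl1 make up most of this sum, so these shares mirror each other and are not findings separate from Bcl2. In them mouse 87 stood with the other Lym mice, at their far end from Lin-, with its Mcl1 count the lowest of all 6 libraries. The log2 ratio of Bcl2 to Bax per kilobase was instead 1.60, 1.02 and -0.53 in Lym against -0.51, -0.04 and -0.93 in Lin-, with mouse 87 among the Lin- mice. Set against Bcl2l11, whose protein it sequesters, Bcl2 had log2 ratios of 2.62, 2.51 and 3.16 in Lym against 2.78, 2.32 and 2.36 in Lin-, which overlap, as do the ratios to Bbc3. Relative to Bak1 the log2 ratios were -0.04, -0.11 and -0.78 in Lym against -1.15, -1.14 and -1.34 in Lin-. To Bid they were -0.09, 0.21 and -0.14 in Lym against -0.45, -0.80 and -0.57 in Lin-. To Pmaip1 they were 0.28, 0.79 and 0.36 in Lym against -0.06, -0.22 and -0.56 in Lin-. In these last 3 ratios every Lym mouse, 87 included, lay above every Lin- mouse. All 3 hold Bcl2, whose own groups were apart, so they are not findings separate from it.

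Of 14 further family genes, 5 passed the filter on low values and none of those had groups apart or an unadjusted limma p under 0.05. Their median log2 fold change was -0.07, beside -0.01 over all genes tested. The BH3-only gene Bmf was at 151, 638 and 112 normalized counts in Lym against 154, 196 and 154 in Lin-, where mouse 63 alone was high. Its log2 fold change of 0.41 ± 0.57 was smaller than its error. The BH3-only gene Bad (-0.10), Bcl2l12 (-0.12), Bcl2l13 (-0.07) and Bcl2l14 (0.09) lay close to 0 on the same scale. The other 9, Bcl2a1a to Bcl2a1d, Bcl2l10, Bok, Bik, Hrk and Bcl2l15, reached at most 7.83 normalized counts (Bik, Lym mouse 63). The Bcl2a1 genes are near-identical copies, and how shared reads were counted is not given in the sources used here, so their values are uncertain.

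Genes acting at the mitochondrial membrane were lower in Lym in 10 of 10 cases, none of them called by limma. Their median log2 fold change was -0.26, beside -0.01 over all genes tested. In 4 of 10 the groups were apart with Lym lower, where 7.08% of all genes were. The further lists were chosen with earlier results of these data known, so their counts are descriptions and carry no test. Mtch2, a receptor for truncated Bid, was at 314, 378 and 477 normalized counts in Lym against 728, 554 and 597 in Lin-. Its difference was -0.69 ± 0.20 on the log2 scale (limma adjusted p = 0.421). Every Lym mouse was below every Lin- mouse, with mouse 87 the nearest. The porin gene Vdac2 (-0.35), the mitochondrial nuclease gene Endog (-0.59) and the protease gene Htra2 (-0.27) were the other 3 with groups apart, by log2 fold change. Without Lym mouse 87 limma called 1 of the 10 as lower, Mtch2, where 4.09% of all genes were called lower.

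Downstream of the mitochondria, 9 of 11 genes of the apoptosome and caspases were higher in Lym, with a median log2 fold change of 0.12 and no call. Casp8, the caspase that cleaves Bid, was at 4107, 3217 and 2862 normalized counts in Lym against 2857, 2829 and 2690 in Lin-, its groups barely apart. Cflar, the inhibitor of caspase-8, had 3491, 3228 and 2102 in Lym against 2106, 2475 and 1847 in Lin-. That put mice 62 and 63 above and mouse 87 within the Lin- range, and limma called Cflar without mouse 87 (adjusted p = 0.0231) but not with all 6 libraries (0.506). The executioner caspase gene Casp6 had a log2 fold change of 0.65 ± 0.30 and the nuclease inhibitor gene Dffa one of -0.23 ± 0.15, both with overlapping groups. Of 8 tested genes of the inhibitor-of-apoptosis (IAP) family and its Naip relatives, 5 were higher and 3 lower, with a median of 0.15. Birc6, a very large ubiquitin ligase of that family, was at 17588, 16852 and 15959 normalized counts in Lym against 12721, 13014 and 13838 in Lin-, apart and higher in Lym (0.35 ± 0.10). Naip2 was apart and lower (-0.68 ± 0.22), and limma called it without Lym mouse 87 (adjusted p = 0.0133). Birc3 (0.32) and Naip5 (-0.23) overlapped. Naip genes are close copies, which makes their counts uncertain.

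Among 14 tested genes that regulate the family's RNA or protein, 10 were higher and 4 lower in Lym, with a median log2 fold change of 0.29. In 5 of the 14 the groups were apart with Lym higher, where 8.49% of all genes were, and limma called none. Because this list too was chosen with earlier results known, the count is a description. Stat3, a cytokine-activated factor that can induce Bcl2 family genes, was at 5205, 4513 and 2647 normalized counts in Lym against 2055, 2407 and 1735 in Lin-. All Lym mice were above all Lin- mice, mouse 87 only narrowly, and its log2 fold change passed in DESeq2 (1.00 ± 0.24, adjusted p = 0.00562) but not in limma (0.95 ± 0.25, adjusted p = 0.420). Foxo3, which switches on Bcl2l11 and Bbc3 when growth factors are withdrawn, was at 5002, 4266 and 3463 in Lym against 3027, 2868 and 2889 in Lin- (0.52 ± 0.14, limma adjusted p = 0.420). Stat5a (0.63 ± 0.21) and the ubiquitin ligase genes Fbxw7 (0.34 ± 0.14) and Huwe1 (0.21 ± 0.11), whose products mark Mcl1 for destruction, were also apart. Foxo1, another factor of that family, was at 149, 153 and 22.9 in Lym against 29.1, 43.1 and 32.0 in Lin-, with mouse 87 the lowest of all 6 libraries. Trp53 itself, the regulator of Bax, Bbc3 and Pmaip1, was at 2108, 2183 and 2498 in Lym against 2449, 1961 and 2223 in Lin-, which overlap. Across all 48 tested genes of these lists, limma called 8 without Lym mouse 87: Stat3, Foxo3, Stat5a, Stat5b, Foxo1 and Cflar higher, and Mtch2 and Naip2 lower. In that fit 5.48% of all genes were called higher and 4.09% lower.

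**Figure D4:**
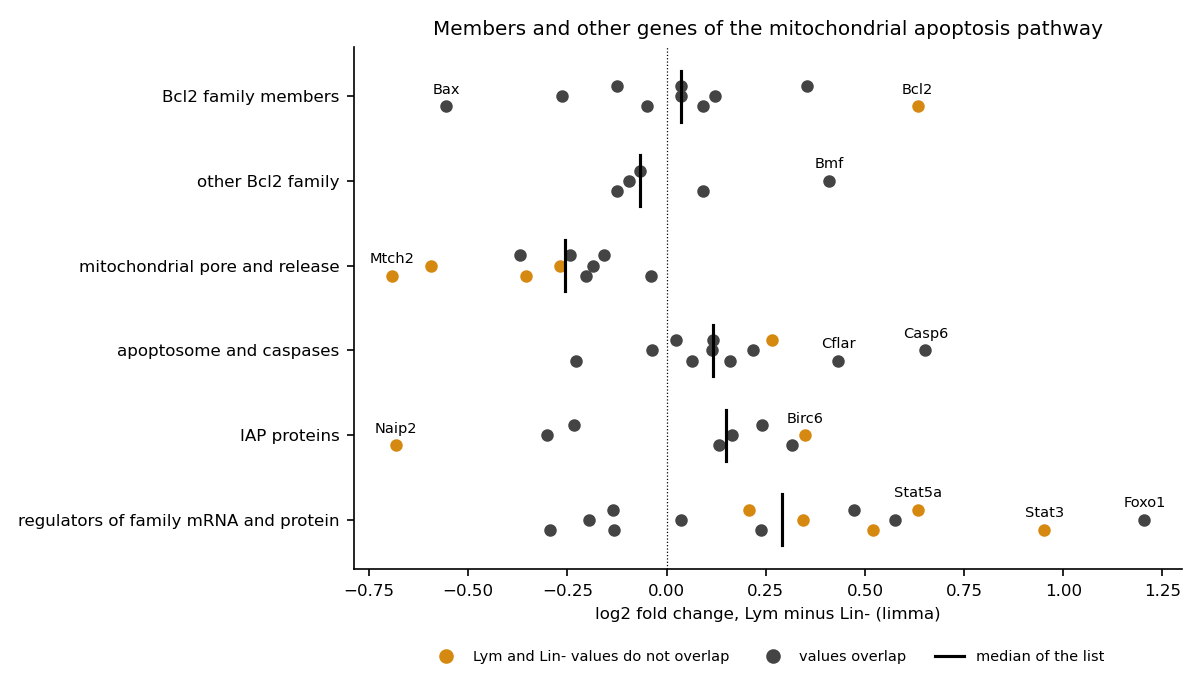
Log2 fold change, Lym minus Lin- (horizontal axis, limma), of the members and of the tested genes of 5 further lists; every point is 1 gene, orange where the Lym and Lin- values do not overlap, and vertical bars are list medians. The 10 mitochondrial genes lie at or below -0.04, and the regulators reach 1.20 (Foxo1).

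Among the genes whose profile over the 6 libraries was most like that of Bcl2 were Frmd8, Sec24c, Bach2 and Herc2, with Pearson correlations of 0.989 to 0.997 on the log2 scale, among the highest of 9202 genes with a mean of at least 100 normalized counts. With 6 libraries such values describe a ranking and carry no test. Bach2 is a transcriptional repressor known from B cells, and Herc2 is a large ubiquitin ligase. Frmd8, the nearest, was at 960, 1026 and 871 normalized counts in Lym against 711, 665 and 647 in Lin-, apart like Bcl2 and with the same order among the Lym mice. For Mcl1 the nearest profiles were Gab2, Zfp933 and Plxnb2 (0.965 to 0.975), and for Bcl2l11 they were Zfp87, Rap1gap2 and Sos2 (0.989 to 0.992). Lym mouse 87 was the lowest of all 6 libraries in the 3 genes nearest to Mcl1 and the lowest of the Lym group in the 3 nearest to Bcl2l11. It held the same places in Mcl1 and Bcl2l11 themselves. Such shared places, those of Frmd8 included, follow from picking the genes by their likeness to these members.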

How the data were processed

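Total RNA of bone marrow cells was measured in 6 libraries, 3 Lym and 3 Lin-, prepared, per the labels' protocols, with a stranded total RNA kit and 12 PCR cycles. Input RNA was 2 ng, except 1 ng for Lym mouse 62, and reads had 38 bases. The submitters' processing notes name, with no role for each, STAR 2.6.1d and featureCounts 1.6.4, next to Trim Galore 0.6.4, bcl2fastq, DESeq2 and the build GRCm38.p6. The annotation release and the use of strand are not given in the sources used here. The deposited values form a signal per gene and library that the authors normalized, as the values show, by a single size factor for each library. Dividing by the smallest step in a library gave whole reads for 100% of values up to 10000 (tolerance 0.01). Further deposited columns, per the file headers, are a log2 fold change with standard error, a score (the Wald statistic), and a p-value with its adjusted value. Signs were turned to Lym minus Lin-. Of the gene identifiers 54349 of 55401 matched GENCODE M21 by version and coordinates.

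Differences were fitted with limma 3.58.1 (R 4.3.3, trend option) on log2(normalized count + 2) over the 14273 genes reaching 10 normalized counts in 3 or more libraries, with Benjamini-Hochberg adjustment over all of them and a threshold of 0.05. All 10 members passed the filter. Leaving out a mouse kept the same genes. edgeR 4.0.16 with TMM, limma-voom and DESeq2 1.42.0 on the recovered reads were alternatives, beside scaling, pseudocount, filter and library weights. The fits were tested on simulated data. Labels give neither batch nor pairing. Members and lists were chosen with earlier results of these data known. The genes named are the members, the 4 genes of each further list with the lowest limma p, and the nearest profiles to Bcl2, Mcl1 and Bcl2l11. A marker and a gene of the nearest profiles are not reported here. Bcl2l14, Huwe1, Stat5b, Foxo1, Trp53 and the 9 family genes under the filter were named after their values were seen. Counting errors take reads as independent, although PCR duplicates are among them.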

Additional observations from a re-analysis of the deposited data

How the results depend on the processing

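The number of genes past the threshold, 0 in limma, was 226 in DESeq2, 660 with library weights, 5 without the filter on low values and 1 with a pseudocount of 10. It ran from 0 to 1366 when each mouse was left out in turn, and from 53 to 2074 in DESeq2, an alternative chosen after seeing the data, with the highest value in both without Lym mouse 87. Of the members, 0 passed in limma, 1 (Bcl2) in DESeq2 and 1 with library weights, 0 to 2 with a mouse left out and 0 to 4 in DESeq2 with a mouse left out. Of the further lists, 0 genes passed in limma, 1 in DESeq2 and 7 with library weights, with 0 to 8 in limma and 0 to 13 in DESeq2 when a mouse was left out. Bcl2 was higher in Lym under all 20 alternatives (0.58 to 0.71 on the log2 scale). Since its groups did not overlap, leaving out a mouse in limma could not have turned this direction. With Bcl2 included, 6 of the 10 members kept their direction under all 20. Among these 6, however, Mcl1 came down to 0.0052, Bax to -0.019 and Pmaip1 to -0.00075. The members outside these 6 turned: with library weights, Bcl2l1 to -0.064 and Bid to -0.0025. With a mouse left out, in limma or DESeq2, Bcl2l1 ran from -0.0065 to 0.28, Bcl2l2 from -0.018 to 0.14, Bid from -0.020 to 0.11 and Bbc3 from -0.50 to 0.24. The cause was not tested. The anti- minus pro-apoptotic difference stayed positive, from 0.17 to 0.48. No paired analysis was possible because the groups share no mouse number. With 143 to 404 reads in a library, Bbc3, Bcl2l1 and Bcl2l2 carry the largest counting error.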
